A study of Mus musculus with 18 samples.

Results

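The genes described here encode interferon-induced antiviral effectors: the oligoadenylate synthetase (OAS) family, the kinase PKR (gene Eif2ak2) and the MX GTPases. They were chosen by symbol as the 9 genes Oas1a, Oas1g, Oas2, Oas3, Oasl1, Oasl2, Eif2ak2, Mx1 and Mx2, out of 24421 genes listed. All 9 passed the filter on low counts, as did 13507 genes in all.

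RNA was sequenced from wild-type cells of the mouse mammary carcinoma line 4T1 (strain BALB/cfC3H) and from 4T1R1 and 4T1R2. These are populations, not stated to be single clones, that grew from 4T1 cells surviving separate rounds of 17-DMAG, a geldanamycin-type inhibitor of the chaperone HSP90. Each was sequenced untreated or after 17-DMAG at 1.5 µM, with 3 libraries in each of 6 groups. The duration of this exposure is 2 h in the series record but 48 h in the sample records, and the records also differ on how the resistant cells were selected.

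Total counts ran from 23354461 to 55094630 per library. In treated 4T1, replicates 1 and 2 held counts closer to each other than any other pair of a shared group (chi-square per gene 1.10, against 2.04 to 2.22). The pair was flagged because its value lay far below the median of all pairs. The pair was averaged and counted as 1 sample, so n = 2 in that group and n = 3 in the others. Raw counts were averaged, and replicate 2 (55094630 counts) weighs more in them than replicate 1 (28493864). The library numbers of 4T1R1 form a series apart from those of 4T1 and 4T1R2, and whether they were prepared or sequenced separately is not stated. If they were, a difference of 4T1R1 from the other populations and one of handling cannot be told apart. The series record calls the replicates biological, but nothing ties them to separate cultures, so p-values measure the spread between these samples only. The epithelial markers Epcam, Cdh1, Krt7, Krt8, Krt18 and Krt19 were all detected, with a summed level of 51351 to 77557 normalized counts.

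OAS enzymes bind double-stranded RNA and make short oligoadenylates, a second messenger of the antiviral state. PKR, also activated by double-stranded RNA, phosphorylates the initiation factor eIF2α and slows translation. MX proteins are dynamin-like GTPases that block the early steps of virus replication. All are textbook targets of type I interferon, whose receptor activates the transcription factor complex ISGF3, and ISGF3 binds the interferon-stimulated response element (ISRE). Because many inbred mouse strains carry a defective Mx1, a transcript level says nothing of its protein. The alleles of Mx1 and Mx2 in these cells were not examined, so no functional protein is inferred for either.

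All but 1 of the genes lie in clusters (GRCm38, GENCODE vM21). Oas2, Oas3, Oas1g and Oas1a lie in this order on the minus strand of chromosome 5, from 120730333 (the start of Oas2) to 120907521 (the end of Oas1a). Oasl2 (chr5:114896936-114912234) and Oasl1 (chr5:114923240-114937915) are neighbours on the plus strand. Mx1 (chr16:97447035-97462907, minus strand) and Mx2 (chr16:97535308-97560900, plus strand) also lie close together, whereas Eif2ak2 (chr17:78852564-78882573, minus strand) stands alone.

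RefSeq promoter windows (GRCm38.p6, 250 bases before to 50 after the start) were found for 6 of the 9 genes: Oas1a, Oas1g, Oas3, Oasl1, Oasl2 and Eif2ak2. The ISRE core GAAANNGAA, read on both strands, was present in 4 of these 6 windows (Oas1a, Oas1g, Oas3 and Eif2ak2), and in 8.56% of all 32851 promoter windows of that length. The GAS element TTCNNNGAA, a site of the interferon-γ response, was in the windows of Oas1a and Eif2ak2 and in 8.30% of all windows. No GAS match overlapped an ISRE match. In Eif2ak2 the ISRE matches began 19 and 25 bases after the RefSeq start. The 3 sequences below are shown because each holds a pair of ISRE matches before the start site. Each is the 120 bases before the RefSeq start, 5′ to 3′ on the minus strand, with the overlapping pair in capitals, for Oas1a (chr5:120907526-120907645), Oas1g (chr5:120887614-120887733) and Oas3 (chr5:120777660-120777779):
Oas1a: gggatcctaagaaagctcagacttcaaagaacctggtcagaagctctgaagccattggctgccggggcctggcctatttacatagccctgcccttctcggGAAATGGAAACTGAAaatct
Oas1g: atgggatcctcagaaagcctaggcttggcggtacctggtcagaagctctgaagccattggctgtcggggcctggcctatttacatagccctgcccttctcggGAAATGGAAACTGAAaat
Oas3: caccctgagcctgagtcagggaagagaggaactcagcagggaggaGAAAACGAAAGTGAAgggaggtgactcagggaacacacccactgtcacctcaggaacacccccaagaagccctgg

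The Oas1a and Oas1g sequences carry the same letters in the pair, which begins 20 and 18 bases before the start, and over the 250 upstream bases they were 82.8% identical. In Oas3 the pair has other letters in its variable positions and begins 75 bases before the start. All other pairs of these 6 genes were 45.7% to 51.0% identical upstream. Oasl1 and Oasl2 held no match to either element in their windows, which says only that these letters are not there.

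The transcripts of Oas1a and Oas1g are alike as well, which bears on their counts. Of the 50-base stretches of Oas1a transcripts, 57.6% also occurred in Oas1g, and of those of Oas1g, 45.3% occurred in Oas1a. With 100-base stretches these shares were 40.9% and 31.3%. Since how the authors' counting treated reads with several matches is not given in the sources used here, the split between these 2 genes is uncertain, and their sum is given beside them. Mx1 and Mx2 shared 3.86% and 4.38% of their 50-base stretches, and no other member shared over 0.31% with any gene.

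The first question was how far the resistant populations differed from 4T1 before treatment. All 9 genes were higher in untreated 4T1R1 than in untreated 4T1 and all 9 were higher in untreated 4T1R2, from 1.36-fold (Eif2ak2) to 22.2-fold (Oas2) in 4T1R1 and from 1.54-fold (Eif2ak2) to 22.2-fold (Oas2) in 4T1R2. In both comparisons every resistant library lay above every 4T1 library for every one of the 9 genes. The share of all genes that separate in this way was not counted, so nothing particular to these genes is read from the separation. Calls rest on edgeR's quasi-likelihood test with the Benjamini-Hochberg adjustment over 13507 genes and a threshold of 0.05. Among all genes tested, 25.2% were called higher and 27.5% lower in 4T1R1, and 25.6% higher and 26.9% lower in 4T1R2. The median log2 fold change of the 9 genes was 1.25 in 4T1R1 and 1.57 in 4T1R2, against 0.0075 and 0.0068 over all genes tested. The 2 comparisons share the 3 untreated 4T1 libraries. The genes were chosen with earlier results of these data known, so their contrast with all genes is only descriptive. In bulk RNA, fewer expressing cells and less RNA per cell cannot be told apart.

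Oas2, a synthetase with a tandem pair of OAS domains, showed the highest fold of the 9. Its normalized counts (counts scaled to a common library size) were 9.32, 10.7 and 3.90 in untreated 4T1, resting on raw counts of 9, 10 and 4. They were 170, 183 and 179 in untreated 4T1R1 and 177, 175 and 179 in untreated 4T1R2. The resistant libraries were thus nearly level with one another and far above 4T1. The log2 fold change was 4.47 ± 0.249 (SE) in 4T1R1 (adjusted p = 7.37e-19, edgeR's quasi-likelihood test) and 4.47 ± 0.251 in 4T1R2 (adjusted p = 9.83e-19).

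Mx1, the MX protein of the nucleus in mice, was close to the limit of detection in 4T1, with raw counts of 2, 11 and 2 and normalized counts of 2.07, 11.8 and 1.95. Its normalized counts were 58.5, 73.0 and 65.0 in untreated 4T1R1 and 73.8, 71.7 and 64.3 in untreated 4T1R2. Relative to their mean, the 4T1 libraries disagreed among themselves by more than the resistant ones did, with replicate 2 above the rest. In normalized counts the SD was 5.63 in untreated 4T1, 7.28 in untreated 4T1R1 and 5.00 in untreated 4T1R2. The log2 fold change was 3.64 ± 0.372 in 4T1R1 (adjusted p = 5.62e-11, edgeR's quasi-likelihood test) and 3.74 ± 0.373 in 4T1R2 (adjusted p = 2.70e-11). Without untreated 4T1 replicate 2 these changes were 4.94 and 5.04.

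Mx2, the cytoplasmic MX protein, had 25.9, 6.41 and 16.6 normalized counts in untreated 4T1, here with replicate 2 lowest. It had 163, 175 and 149 in untreated 4T1R1 and 196, 219 and 170 in untreated 4T1R2. No resistant library came near the 4T1 range. The log2 fold change was 3.29 ± 0.228 in 4T1R1 (adjusted p = 7.73e-16, edgeR's quasi-likelihood test) and 3.56 ± 0.225 in 4T1R2 (adjusted p = 4.55e-17).

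Oas3, the largest synthetase, with OAS domains in a row of repeats, had 73.5, 124 and 93.6 normalized counts in untreated 4T1. It had 378, 448 and 434 in untreated 4T1R1 and 410, 399 and 384 in untreated 4T1R2, so the resistant populations overlapped each other and stood clear of 4T1. The log2 fold change was 2.12 ± 0.130 in 4T1R1 (adjusted p = 2.03e-17, edgeR's quasi-likelihood test) and 2.04 ± 0.133 in 4T1R2 (adjusted p = 1.05e-16).

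Oas1a and Oas1g are single-domain synthetases and moved less than Oas2 and Oas3. Oas1a had 276, 339 and 256 normalized counts in untreated 4T1, 471, 473 and 513 in untreated 4T1R1 and 573, 583 and 526 in untreated 4T1R2. Oas1g had 94.3, 126 and 81.9 in untreated 4T1, 191, 261 and 213 in untreated 4T1R1 and 323, 267 and 209 in untreated 4T1R2. For Oas1a each population occupied its own range, whereas the Oas1g ranges of 4T1R1 and 4T1R2 overlapped. The log2 fold changes were 0.75 ± 0.0904 and 0.95 ± 0.0904 for Oas1a (adjusted p = 3.65e-09 and 6.95e-12, edgeR's quasi-likelihood test), and 1.14 ± 0.153 and 1.42 ± 0.151 for Oas1g (adjusted p = 3.51e-08 and 1.56e-10). Summed into 1 feature, the pair rose by 0.86 ± 0.0869 in 4T1R1 and 1.09 ± 0.0868 in 4T1R2.

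Oasl1 and Oasl2 encode OAS-like proteins that carry ubiquitin-like repeats. Oasl1 has lost the enzymatic activity and is known to restrain translation of Irf7 mRNA, while Oasl2 has kept it. Oasl2 had 288, 305 and 302 normalized counts in untreated 4T1, 744, 735 and 652 in untreated 4T1R1 and 902, 922 and 835 in untreated 4T1R2. Oasl1 had 249, 277 and 320 in untreated 4T1, 433, 458 and 407 in untreated 4T1R1 and 668, 565 and 702 in untreated 4T1R2. Both genes formed 3 separate steps, with 4T1R2 on top. The log2 fold changes were 1.25 ± 0.0749 and 1.57 ± 0.0744 for Oasl2 (adjusted p = 8.18e-18 and 3.51e-21, edgeR's quasi-likelihood test) and 0.61 ± 0.0928 and 1.20 ± 0.0902 for Oasl1 (adjusted p = 4.18e-07 and 9.92e-15).

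Eif2ak2, which encodes PKR, had the smallest change of the 9. Its normalized counts were 2066, 2162 and 2068 in untreated 4T1, 2851, 2816 and 2909 in untreated 4T1R1 and 3311, 3187 and 3166 in untreated 4T1R2. The spread within each group was small, so these modest steps did not overlap. The log2 fold change was 0.45 ± 0.0392 in 4T1R1 (adjusted p = 8.61e-13, edgeR's quasi-likelihood test) and 0.62 ± 0.0393 in 4T1R2 (adjusted p = 4.68e-17).

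**Figure D1:**
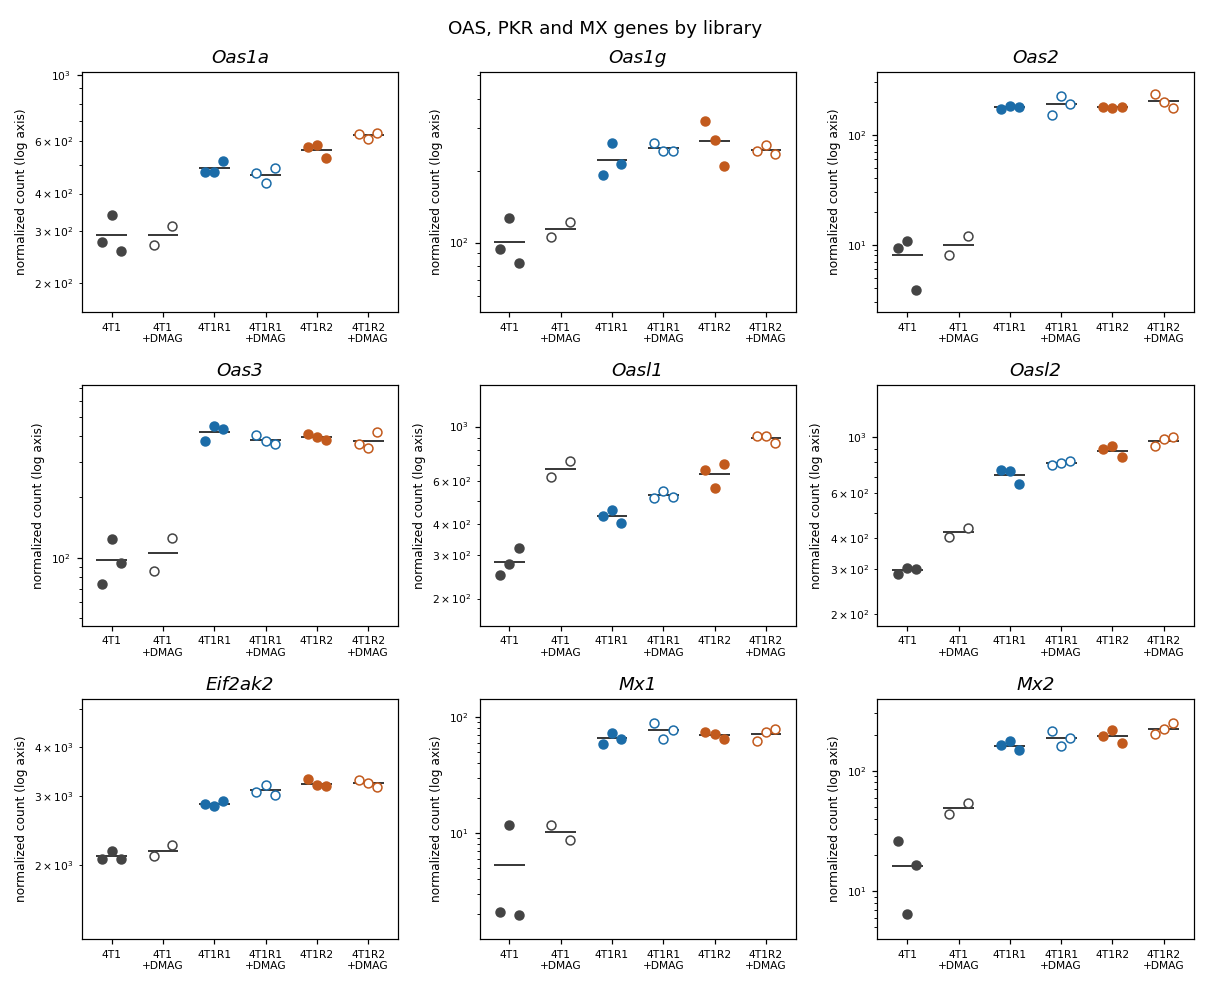
Normalized counts of the 9 genes (vertical axis, log scale, a range of its own in each panel) in each library of the 6 groups; filled points are untreated, open points 17-DMAG-treated (+DMAG), and bars are group means. Untreated and treated 4T1R1 and 4T1R2 libraries lie above the 4T1 libraries in every panel apart from Oasl1, where the treated 4T1 samples (625 and 726) lie above every 4T1R1 library and within reach of untreated 4T1R2 (565 to 702).

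**Figure D2:**
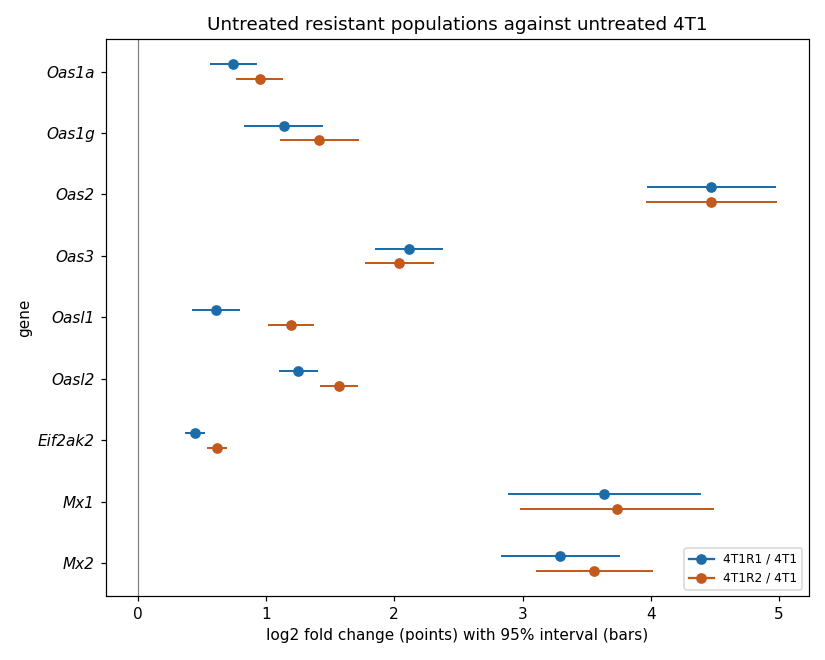
Log2 fold change (horizontal axis) of untreated 4T1R1 (blue) and 4T1R2 (orange) against untreated 4T1 for each gene, with 95% intervals as bars; filled points passed an adjusted p of 0.05. All 18 points lie above 0, from 0.45 for Eif2ak2 in 4T1R1 to 4.47 for Oas2 in both populations.

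Markers of other cell types were read beside these changes. The summed level of 8 leukocyte markers was 145 to 205 normalized counts in untreated 4T1, 232 to 237 in untreated 4T1R1 and 222 to 258 in untreated 4T1R2. Most of it was Cd68, a lysosomal protein of macrophages that other cells also make, at 118 to 177, 200 to 206 and 181 to 192. By edgeR's quasi-likelihood test Cd68 was called higher in 4T1R1 (log2 0.46 ± 0.131, adjusted p = 0.00274) and in 4T1R2 (0.33 ± 0.135, adjusted p = 0.0349). Csf1r, the receptor of a macrophage growth factor, had 9.75 to 10.7 in 4T1, 9.74 to 17.7 in 4T1R1 and 18.2 to 43.0 in 4T1R2, and was called higher than 4T1 in 4T1R2 (log2 1.54 ± 0.419, adjusted p = 0.00203, edgeR's quasi-likelihood test) but not in 4T1R1 (0.45 ± 0.454). The leukocyte marker Ptprc went the other way, with 10.7 to 17.6 in 4T1, 4.17 to 7.79 in 4T1R1 and 4.68 to 18.2 in 4T1R2. Ptprc was called lower than 4T1 in 4T1R1 (log2 −1.33 ± 0.563, adjusted p = 0.0440, edgeR's quasi-likelihood test) but not in 4T1R2 (−0.49 ± 0.521). The macrophage marker Adgre1 was at 0 in all untreated libraries, and the T-cell marker Cd3e had at most 2 counts in any. Itgam and Lyz2, of the same list, were at 0 in untreated 4T1 but not in the resistant populations. In raw counts Itgam had 2 to 10 in untreated 4T1R1 and 0 to 12 in untreated 4T1R2. Lyz2 had 4 to 6 and 0 to 2. The 7 fibroblast and endothelial markers summed to 695 to 781 in untreated 4T1, 853 to 906 in untreated 4T1R1 and 927 to 1049 in untreated 4T1R2. Most of it was Pdgfra (667 to 741, 810 to 869 and 901 to 1027), which was called higher in both (log2 0.24 ± 0.0669 and 0.45 ± 0.0670). Col1a1 was called higher in 4T1R1 (1.16 ± 0.493, adjusted p = 0.0452, edgeR's quasi-likelihood test) but not in 4T1R2 (0.24 ± 0.556), and Col1a2 and Pecam1 passed in neither. The epithelial sum was lower in the resistant cells, with 76481 to 77557 in 4T1, 51351 to 53921 in 4T1R1 and 59347 to 60577 in 4T1R2. Its markers did not move together. Krt7, Krt8, Krt18 and Krt19 were lower in both. Epcam was lower in 4T1R1 (log2 −1.01) but did not pass in 4T1R2 (−0.10). Cdh1 was higher in 4T1R2 (0.27 ± 0.0273, adjusted p = 2.41e-11, edgeR's quasi-likelihood test) and did not pass in 4T1R1 (0.014). The part of these differences in the OAS, PKR and MX levels was not tested.

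Levels can be compared between genes per kilobase of exon. In the 3 untreated groups the order was the same from top to bottom. In untreated 4T1 it ran from Eif2ak2 at 410 ± 10.7 normalized counts per kilobase (SD, n = 3) through Oas1a (154 ± 22.8), Oasl1 (108 ± 13.8), Oasl2 (46.8 ± 1.41), Oas1g (43.1 ± 9.74), Oas3 (13.7 ± 3.59), Mx2 (4.51 ± 2.70) and Oas2 (1.79 ± 0.806) to Mx1 (1.39 ± 1.49). Of these neighbours, Oasl2 and Oas1g, and likewise Oas2 and Mx1, differed by less than the larger of their SDs. After 17-DMAG, Oasl1 stood above Oas1a in 4T1, at 259 ± 27.4 (SD, n = 2) against 154 ± 16.0, and in 4T1R2, at 344 ± 13.8 (SD, n = 3) against 333 ± 7.80, where the gap was within the SD. In untreated 4T1R1 Eif2ak2 stood at 559 ± 9.23 and Mx1 at 17.3 ± 1.92, so the ratio of the top gene to the bottom gene was smaller there than in 4T1. The genes at the bottom of the order in 4T1 were those with the highest folds in the resistant populations. This is a description over 9 genes that share libraries and scaling. The untreated 4T1 level is also the denominator of these folds, so a low level there raises them by itself.

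A direct comparison of the untreated resistant populations placed Oasl1, Oasl2 and Eif2ak2 higher in 4T1R2 than in 4T1R1, with 3 of 9 genes higher and 0 lower, against 19.7% of all genes higher and 19.0% lower. Their libraries did not overlap. Oasl1 differed by 1.50-fold (log2 0.58 ± 0.0849, adjusted p = 4.51e-07), Oasl2 by 1.25-fold (0.32 ± 0.0667, adjusted p = 0.000150) and Eif2ak2 by 1.13-fold (0.17 ± 0.0382, adjusted p = 0.000323), all by edgeR's quasi-likelihood test. Oas1a sat at the threshold with 0.21 ± 0.0847 and an adjusted p of 0.0501 from edgeR's quasi-likelihood test, although its libraries did not overlap. Summed with Oas1g it differed by 0.23 ± 0.0808 (adjusted p = 0.0219). For the genes with the highest folds over 4T1 no difference between the populations passed, and the 95% interval of the log2 difference was −0.30 to 0.30 for Oas2, −0.40 to 0.59 for Mx1, −0.049 to 0.58 for Mx2 and −0.30 to 0.14 for Oas3. In the pathway lists described further on, the largest passing differences between these populations were higher levels of Abce1 (0.18), Dnajc3 (0.25) and Irf9 (0.26) and a lower level of Dhx58 (−0.53) in 4T1R2. The separate library number series of these populations applies to this comparison as well.

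The second question was how each population responded to 17-DMAG. In 4T1 cells 3 of the 9 genes rose (Oasl1, Mx2 and Oasl2) and 0 fell, against 18.4% of all genes higher and 17.9% lower. In 4T1R1, Oasl1 and Eif2ak2 rose and 0 fell (13.9% of all genes higher, 14.3% lower). In 4T1R2 only Oasl1 rose and 0 fell (6.18% higher, 4.35% lower). With 9 genes these counts are close enough to the shares of all genes that no result about the group is read from them, and the single genes are described instead. Marker sums moved in 4T1 as well: the fibroblast and endothelial markers summed to 406 to 426 normalized counts after treatment against 695 to 781 before, and the leukocyte markers to 179 to 211 against 145 to 205. The former was almost wholly Pdgfra, which fell by 0.89 on the log2 scale, while Col1a1 (0.35), Col1a2 (0.079) and Pecam1 (−0.999) did not pass. The part of this in the responses was not tested. For the 9 genes the log2 fold change had a median of 0.30 (4T1), 0.16 (4T1R1) and 0.13 (4T1R2), against 0.00064, −0.0086 and −0.0019 over all genes tested.

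Oasl1 was the member called in all 3 populations. In 4T1 its normalized counts went from 249, 277 and 320 untreated to 625 (the averaged pair) and 726 after 17-DMAG. In 4T1R1 they went from 433, 458 and 407 to 515, 548 and 519. In 4T1R2 they went from 668, 565 and 702 to 915, 919 and 855. In each population every treated library lay above every untreated one. The change was 2.38-fold in 4T1 (log2 1.25 ± 0.0965, adjusted p = 4.07e-14, edgeR's quasi-likelihood test), 1.22-fold in 4T1R1 (0.29 ± 0.0859, adjusted p = 0.00985) and 1.39-fold in 4T1R2 (0.47 ± 0.0790, adjusted p = 4.07e-05). After treatment, 4T1 cells held more Oasl1 RNA than any 4T1R1 library and about as much as untreated 4T1R2, comparisons that were not tested. The call in 4T1R1 was lost without untreated 4T1R1 replicate 3 (adjusted p = 0.0536).

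Mx2 rose 2.94-fold in 4T1, from 25.9, 6.41 and 16.6 normalized counts to 43.9 and 54.0 (log2 1.55 ± 0.299, adjusted p = 5.00e-05, edgeR's quasi-likelihood test). The treated samples lay above the untreated ones but still below the lowest resistant library, at 149. In 4T1R1 the treated libraries had 213, 162 and 188 and in 4T1R2 they had 204, 221 and 247, which overlapped the untreated ones in both populations. The log2 change there was 0.21 (95% interval −0.095 to 0.52) and 0.20 (−0.097 to 0.50), so a fold rise as large as that in 4T1 lies outside both intervals. This holds for ratios only. In normalized counts the group means went from 16.3 to 48.9 in 4T1, 162 to 188 in 4T1R1 and 195 to 224 in 4T1R2.

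Oasl2 rose 1.41-fold in 4T1, from 288, 305 and 302 to 403 and 439 (log2 0.49 ± 0.0872, adjusted p = 1.39e-05, edgeR's quasi-likelihood test). Its treated libraries had 776, 795 and 808 in 4T1R1 and 923, 985 and 1004 in 4T1R2. These lay above the untreated libraries of the same population without overlap, but the changes of 0.16 ± 0.0668 and 0.13 ± 0.0646 did not pass (adjusted p = 0.0725 and 0.215). With library totals alone as the scaling, the change in 4T1R1 passed (0.19 ± 0.0684, adjusted p = 0.0317). Even after treatment no 4T1 sample reached the lowest untreated resistant library, at 652.

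For the synthetases Oas1a, Oas1g, Oas2 and Oas3, treated and untreated libraries overlapped in all but 1 case, and none passed in any population. The exception was Oas1a in 4T1R2, with 633, 611 and 639 after treatment against 573, 583 and 526 before (log2 0.16 ± 0.0823, adjusted p = 0.230, edgeR's quasi-likelihood test). Treated 4T1 samples had 268 and 311 for Oas1a, 105 and 122 for Oas1g, 8.05 and 11.9 for Oas2, and 86.1 and 125 for Oas3, in the range of untreated 4T1 or next to it. The precision differed between these genes. In 4T1 the 95% interval of the log2 change was −0.22 to 0.21 for Oas1a, but −0.66 to 1.26 for Oas2, whose counts were few, so a change of Oas2 within that range is not excluded.

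Treated 4T1R1 libraries had 469, 433 and 488 for Oas1a, 260, 241 and 241 for Oas1g, 150, 226 and 191 for Oas2, and 406, 379 and 366 for Oas3. In treated 4T1R2 they were 242, 255 and 235 for Oas1g, 233, 199 and 176 for Oas2, and 367, 352 and 422 for Oas3. On the log2 scale the fitted changes of these synthetases in the resistant populations lay between −0.14 (Oas1g in 4T1R2) and 0.19 (Oas2 in 4T1R2).

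Eif2ak2 had 2101 and 2244 normalized counts in treated 4T1, 3070, 3197 and 3014 in treated 4T1R1 and 3285, 3230 and 3153 in treated 4T1R2. The rise in 4T1R1 was 1.08-fold (log2 0.11 ± 0.0381, adjusted p = 0.0216, edgeR's quasi-likelihood test), without overlap of the libraries. It did not pass without untreated replicate 1 or 2 or treated replicate 2 of 4T1R1 (adjusted p = 0.0533, 0.0696 and 0.124). In 4T1 and 4T1R2 the libraries overlapped and the 95% intervals were −0.042 to 0.14 and −0.076 to 0.076.

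Mx1 had 11.7 and 8.64 normalized counts in treated 4T1, 89.2, 64.5 and 77.5 in treated 4T1R1 and 62.1, 74.4 and 78.0 in treated 4T1R2. In 4T1 the log2 change of 0.99 ± 0.553 did not pass (adjusted p = 0.168, edgeR's quasi-likelihood test), and the untreated replicate 2, at 11.8, was as high as the treated samples. Without that library the change was 2.29 ± 0.682 and passed (adjusted p = 0.00719), so 1 library with 11 counts decided this call.

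**Figure D3:**
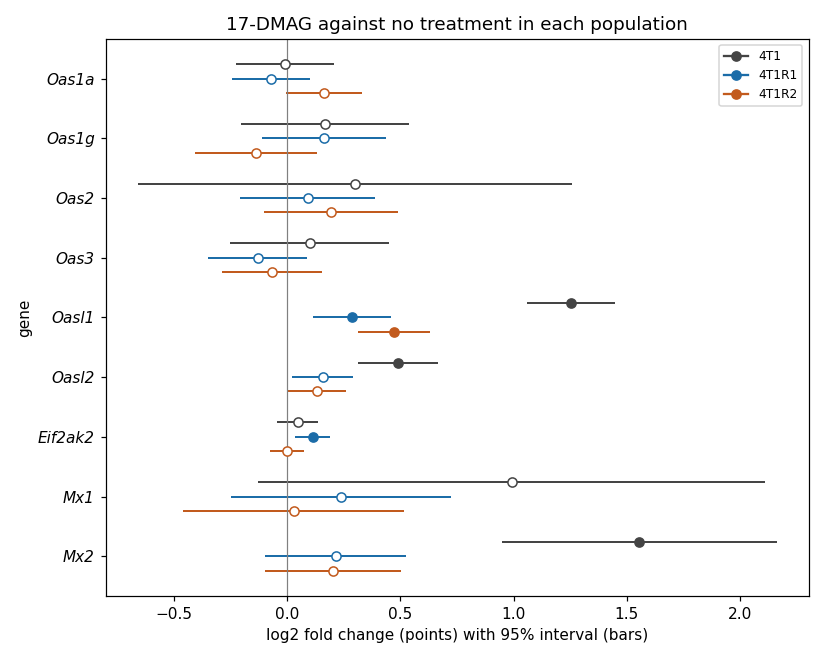
Log2 fold change after 17-DMAG (horizontal axis) of each gene in 4T1 (grey), 4T1R1 (blue) and 4T1R2 (orange), with 95% intervals as bars; filled points passed an adjusted p of 0.05 and open points did not. Oasl1 is filled in all 3 populations, at 1.25, 0.29 and 0.47, while Mx2 (1.55) and Oasl2 (0.49) are filled in 4T1.

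Whether the responses differed was tested as an interaction, the log2 change in a resistant population minus the log2 change in 4T1. It compares ratios, not differences in counts, between populations whose untreated levels differ. For Oasl1, Oasl2 and Mx2 the response was smaller in 4T1R1 and also in 4T1R2 than in 4T1, 3 of 9 genes lower and 0 higher in each. Over all genes tested, 9.16% had a higher and 9.08% a lower response in 4T1R1, and 9.62% a higher and 8.16% a lower one in 4T1R2. Both interactions share the 4T1 samples. The difference for Oasl1 was −0.97 ± 0.130 on the log2 scale in 4T1R1 (adjusted p = 3.29e-07, edgeR's quasi-likelihood test) and −0.78 ± 0.125 in 4T1R2 (adjusted p = 7.55e-06). For Mx2 it was −1.34 ± 0.338 (adjusted p = 0.00350) and −1.35 ± 0.336 (adjusted p = 0.00300), and for Oasl2 −0.33 ± 0.110 (adjusted p = 0.0282) and −0.36 ± 0.109 (adjusted p = 0.0159). The median over the 9 genes was −0.23 and −0.30, against −0.0031 and −0.0011 over all genes tested. Leaving out 1 library at a time, this median ran from −0.44 to 0.042 in 4T1R1 and from −0.40 to −0.14 in 4T1R2. The Oasl2 difference did not pass in 4T1R1 without untreated 4T1R1 replicate 1 or 2, treated 4T1R1 replicate 1, untreated 4T1 replicate 1 or treated 4T1 replicate 3 (adjusted p = 0.0592 to 0.176), nor in 4T1R2 without treated 4T1 replicate 3 (adjusted p = 0.132). Without untreated 4T1 replicate 2, Mx1 also had a smaller response in both (−2.05 ± 0.724, adjusted p = 0.0412, and −2.26 ± 0.721, adjusted p = 0.0233), which made 4 genes lower in each. With any other library left out, 2 or 3 were lower.

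Other genes of the pathway were read from lists, starting with the remaining copies of Oas1. Of 6 such copies, 3 were tested (Oas1b, Oas1c and Oas1h), and Oas1b and Oas1c were higher in both untreated resistant populations. Of all genes tested, 25.2% were higher in 4T1R1 and 25.6% in 4T1R2. Oas1b differed by 1.81 ± 0.183 in 4T1R1 and 1.77 ± 0.187 in 4T1R2 (edgeR's quasi-likelihood test, adjusted p = 4.30e-11 and 1.06e-10). Oas1h, the copy with the largest fitted change, had raw counts of 0, 2 and 0 in untreated 4T1 and at most 6 in treated 4T1. It had 21, 4 and 10 in untreated 4T1R1 and 24, 11 and 15 in untreated 4T1R2. No fold is given against so few counts in 4T1. Oas1h passed the filter only through the resistant groups, where it is high, so its call is not counted with the others. After 17-DMAG, Oas1b rose in 4T1 (0.96 ± 0.216, adjusted p = 0.000435) and in 4T1R1 (0.42 ± 0.147, adjusted p = 0.0267), and its response was smaller in 4T1R2 than in 4T1 (−0.77 ± 0.265, adjusted p = 0.0371).

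Beside the synthetases, Abce1, which encodes a factor that recycles ribosomes, fell by 0.47 and 0.29 in untreated 4T1R1 and 4T1R2 relative to 4T1. Of the 10 genes around PKR and eIF2α, 2 were higher and 4 lower in 4T1R1 and 4 were higher and 4 lower in 4T1R2. Among all genes tested, 25.2% were higher and 27.5% lower in 4T1R1, and 25.6% and 26.9% in 4T1R2. With 10 genes the counts are close enough to these shares that no result about the list is read from them. Adar, which edits double-stranded RNA and so limits PKR activation, was higher by 0.37 ± 0.0436 and 0.60 ± 0.0436, while Prkra, an activator of PKR, had 0.065 and −0.12 and did not pass. The largest of these changes was that of Ppp1r15a, an eIF2α phosphatase subunit, in 4T1R1 (0.60 ± 0.0919) and Adar in 4T1R2. After 17-DMAG Adar rose in 4T1 by 0.37 ± 0.0482 (adjusted p = 3.68e-08), and its response was smaller in 4T1R1 (−0.31 ± 0.0645) and in 4T1R2 (−0.37 ± 0.0640). Eif2ak3, the eIF2α kinase of the endoplasmic reticulum, fell by 0.39 in treated 4T1R1, and Ppp1r15b rose by 0.15 in treated 4T1R2, the largest passing changes of this list there. The largest difference of response in this list was that of Eif2ak3 in 4T1R1 (−0.37 ± 0.120) and of Adar in 4T1R2.

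Upstream, the interferon genes themselves gave almost no counts. Of 11 interferon genes only Ifnk passed the filter, and it passed the test in no comparison. Ifnb1 had 0 counts in all 4T1 libraries and between 0 and 4 in the resistant ones, too few to test. By counting error alone, 0 counts allow up to 3 fragments in a library, and a fragment may add both its reads to the count. Of the 7 genes of the receptor and ISGF3, 6 were higher in untreated 4T1R1, 5 in untreated 4T1R2, and 0 were lower. The shares over all genes tested were 25.2% higher and 27.5% lower in 4T1R1, and 25.6% and 26.9% in 4T1R2. Ifnar2, a chain of the receptor, differed most (1.12 ± 0.0578 and 1.00 ± 0.0588), whereas Ifnar1, the other chain, had 0.063 and −0.037 and did not pass. Stat2 was higher by 0.69 ± 0.0749 and 0.94 ± 0.0747, and Irf9 by 0.63 ± 0.0791 and 0.90 ± 0.0788. After 17-DMAG in 4T1, Irf9 rose (0.30 ± 0.0895), while Tyk2, a kinase of the receptor, and Ifnar1 were lower (−0.34 and −0.23). In 4T1R1 Tyk2 fell by 0.39 along with both receptor chains, and in 4T1R2 0 of the 7 genes passed, against 6.18% of all genes higher and 4.35% lower there.

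Of 8 genes that sense double-stranded RNA or relay that signal, 5 were higher in untreated 4T1R1, 3 in untreated 4T1R2 and 0 lower. Over all genes tested, 25.2% were higher and 27.5% lower in 4T1R1, and 25.6% and 26.9% in 4T1R2. The 3 of 8 in 4T1R2 is near its share, so no result about the list is read from it. Irf7, the interferon-induced factor that drives interferon genes, had the largest difference, 1.70 ± 0.0835 and 1.73 ± 0.0842 (edgeR's quasi-likelihood test, adjusted p = 1.10e-20 and 8.97e-21). After 17-DMAG the largest passing change of this list in each population was the rise of Mavs, the mitochondrial adaptor of RNA sensing, by 0.69 ± 0.0547 in 4T1, 0.47 ± 0.0499 in 4T1R1 and 0.28 ± 0.0509 in 4T1R2. The largest difference of response was that of Ddx58, the RNA sensor RIG-I, which fell in 4T1 by 0.68, with interactions of 0.59 ± 0.0670 and 0.62 ± 0.0668. Irf7 fell in 4T1R1 (−0.31 ± 0.0740) and had −0.040 and −0.11 in 4T1 and 4T1R2, where it did not pass.

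Across the 17 samples, the 9 genes followed each other closely, with Pearson's r of the log2 normalized counts between 0.494 and 0.975 over 36 pairs (median 0.931). Each gene against the mean of the other 8 gave r from 0.608 (Oasl1) to 0.984 (Oasl2), with Eif2ak2 at 0.975 and Mx2 at 0.924. Oasl1 thus followed the rest least, the gene that rose with 17-DMAG in every population. Among all other genes tested, the 5 most like the mean profile of the 9 were Ifi44 (r = 0.991), Myo1d (0.991), Parp14 (0.991), Samd9l (0.990) and Usp18 (0.989). Ifi44, for example, had 92.5 ± 11.9 normalized counts in untreated 4T1 (SD, n = 3), 612 ± 20.9 in untreated 4T1R1 and 678 ± 44.2 in untreated 4T1R2. These correlations describe samples that share libraries, scaling and the difference between 4T1 and the resistant populations.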

How the data were processed

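Ribosomal RNA was depleted and stranded libraries were prepared. The authors aligned reads to mm10/GRCm38 with STAR, counted them per gene with featureCounts (Subread 1.6.2 in the submitters' processing notes) and deposited raw counts for 18 libraries. Strand and multiple-match settings of the counting are not given in the sources used here. In each library 65.6% to 70.8% of counts from 1 to 12 were even, as when each fragment adds both its reads, and Rn45s took 9.54% to 15.6% of counts.

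Counts were fitted with edgeR 4.0.16 in R 4.3.3 (TMM scaling, filterByExpr, 6 group means in 1 quasi-likelihood fit, 8 comparisons, Benjamini-Hochberg over 13507 genes). A normalized count is a count divided by the TMM-scaled library size relative to the mean. Intervals are 95%. The code was tested on simulated data. Motifs and sequences were read from RefSeq promoters of GRCm38.p6, upstream identity came from global alignments in Biopython 1.88, and figures were drawn with matplotlib 3.10.9 (Python 3.11.15).

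The genes and lists were chosen with earlier results of these data known. Some results are withheld and not reported here. Named were all 9 genes, Stat2, Irf9, Irf7, Ifnb1, Ifnar1, Ifnar2, Adar, Prkra, the passing gene with the largest fitted change of each pathway list, and the 5 genes nearest the mean profile by Pearson's r. Dixon's outlier check was not applied to groups of 3 or fewer. Alternatives were RLE scaling, library totals alone, DESeq2 1.42.0, other filters, fits of only the groups compared, 18 separate libraries, a replicate block, Oas1a and Oas1g summed, Rn45s removed, a 2-fold minimum and each library left out.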

Additional observations from a re-analysis of the deposited data

Results flagged for a closer look

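The response to 17-DMAG differed between a resistant population and 4T1 for 3 genes, by an interaction term in edgeR's quasi-likelihood test. Relative to 4T1, the log2 response of Oasl1 differed by −0.97 ± 0.130 (SE) in 4T1R1 (adjusted p = 3.29e-07) and by −0.78 ± 0.125 in 4T1R2 (adjusted p = 7.55e-06). Mx2 differed by −1.34 ± 0.338 in 4T1R1 (adjusted p = 0.00350) and by −1.35 ± 0.336 in 4T1R2 (adjusted p = 0.00300). Oasl2 differed by −0.33 ± 0.110 in 4T1R1 (adjusted p = 0.0282) and by −0.36 ± 0.109 in 4T1R2 (adjusted p = 0.0159). All 6 values rest on 2 treated 4T1 samples, 1 of them an average.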

How the results depend on the processing

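In the untreated comparisons with 4T1, each of the 9 genes that was tested passed with the same direction under every alternative, apart from a 2-fold minimum, which withdrew the calls of Oas1a and Eif2ak2 in both and of Oasl1 in 4T1R1. A minimum of 10 counts in every library left 6 genes to test (without Oas2, Mx1 and Mx2), 6 higher in each, with medians of 0.95 and 1.31, and summing Oas1a and Oas1g left 8, 8 higher in each, with medians of 1.68 and 1.80. Leaving out any library kept 9 higher in both. Fitted with only the groups compared, 9 were higher in 4T1R2 and the median was 1.58. Mx1 has few counts in 4T1, and depth limits its value and that of Oas2.

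Over all alternatives but the 2-fold minimum in which they were tested, Oasl1 stayed between 1.14 and 1.37 and Mx2 between 1.19 and 2.04 after 17-DMAG in 4T1, and their interactions kept their calls (highest adjusted p = 0.000741 and 0.0370). With a 2-fold minimum, 0 genes were higher in 4T1R2 than in 4T1R1, 0 rose in 4T1R1 and 0 in 4T1R2, and 1 had a smaller response in 4T1R1 and 1 in 4T1R2. With library totals alone the median of all genes moved to −0.11 after 17-DMAG in 4T1 and to 0.15 in the 4T1R1 interaction, where 1 gene (Eif2ak2, 0.21, adjusted p = 0.00648) had a higher response and Oasl2 no longer passed (−0.18, adjusted p = 0.239; −0.29 and 0.0581 in 4T1R2), while Oasl2 in treated 4T1R1 passed (0.19, adjusted p = 0.0317). The number of all genes called then changed to 1193 higher and 4322 lower in 4T1, 365 and 1146 in 4T1R2, 3536 and 419 in the 4T1R1 interaction and 2091 and 632 in the 4T1R2 interaction.

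Leaving out each library gave 1 to 2 genes higher after 17-DMAG in 4T1R1 and 3 to 5 higher in 4T1R2 than in 4T1R1 (5 without untreated 4T1R2 replicate 3, adding Oas1a and Oas1g). Oas1a also passed there without any 1 of 5 other libraries and with RLE scaling, the 10-count minimum, only the groups compared or 18 separate libraries (highest adjusted p of these 0.0499). The median in 4T1 after 17-DMAG, 0.30, was 0.062 without treated replicate 3, 0.075 without untreated replicate 3, 0.51 without untreated replicate 2 and 0.56 without treated replicates 1 and 2. In the 4T1R1 interaction it was 0.042 without treated 4T1 replicate 3 and −0.44 without untreated 4T1 replicate 2. In the 4T1R2 interaction it was −0.14 without untreated 4T1R2 replicate 1, −0.17 without untreated 4T1 replicate 3 and −0.19 without treated 4T1 replicate 3. Of all genes, 376 fell in 4T1R2 without untreated replicate 2 and 367 without treated replicate 1, and without treated 4T1 replicate 3 the 4T1R1 interaction had 798 higher and 787 lower and the 4T1R2 interaction 668 lower.

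The changes of direction were all in values that did not pass. With library totals alone, Oas2 between the resistant populations was −0.0071, Oas3 −0.016 and Eif2ak2 −0.068 in 4T1, Mx1 −0.016 in 4T1R2, the 4T1R1 interaction 0.088 for Oas1a and 0.15 for Oas1g, and the 4T1R2 interaction 0.021 for Eif2ak2. With Oas1a and Oas1g summed, the pair had 0.040 in 4T1, 0.0078 in 4T1R1, 0.073 in 4T1R2 and 0.033 in the 4T1R2 interaction. Without a filter Oas2 between the resistant populations was −0.0064 and Eif2ak2 in 4T1R2 0.0047, and without Rn45s −0.0017 and 0.0031. The Oas1g 4T1R1 interaction was 0.0011 with RLE scaling, 0.0012 with DESeq2, 0.0083 with at least 10 counts in every library, and 0.031 with 18 separate libraries.

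Leaving out each library, values after 17-DMAG in 4T1 ran from −0.0022 to 0.069 for Eif2ak2, −0.11 to 0.12 for Oas1a, −0.11 to 0.56 for Oas2 and −0.17 to 0.31 for Oas3. In 4T1R1 Oas2 ran from −0.060 to 0.24, and in 4T1R2 Eif2ak2 ran from −0.014 to 0.021, Mx1 from −0.036 to 0.12 and Oas1g from −0.28 to 0.039. Oas2 between the resistant populations ran from −0.030 to 0.022. The 4T1R1 interaction ran from −0.19 to 0.044 for Oas1a, −0.19 to 0.13 for Oas1g, −0.47 to 0.20 for Oas2 and −0.44 to 0.042 for Oas3. The 4T1R2 interaction ran from −0.070 to 0.0061 for Eif2ak2, −0.37 to 0.30 for Oas2 and −0.37 to 0.11 for Oas3. Without treated 4T1 replicates 1 and 2 together, Oas2 between the resistant populations was −0.0012, Oas1a in 4T1 0.11 and Eif2ak2 in 4T1R2 0.0038.

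Replicate numbers did not pair the samples: deviations from the group means correlated by −0.047 to 0.053 over 45 same-numbered pairs and by −0.054 to 0.049 over 90 others, and 5 of 18 libraries matched their own number best. With the replicate block in a fit of 18 libraries, all genes called after 17-DMAG in 4T1 were 2760 higher and 2782 lower, the 9 genes kept their number of calls in each comparison (9, 9, 3, 3, 2 and 1 higher, and 3 lower in each interaction), and the directions of Oas3 in 4T1 (−0.0036), of the Oas1g 4T1R1 interaction (0.035) and of the Oas2 4T1R2 interaction (0.016), none of which passed, changed.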
